A study of Mus musculus with 3 samples.

Results

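In mouse primordial germ cells, 1209 wide H3K27me3 domains each held 1 or 2 short islands of H3K4me3. They were chosen by measured values, namely a width of more than 6 kb in the list of H3K27me3 regions and an overlap of at least 1 bp with exactly 1 or 2 regions of the H3K4me3 list. Chromosomes X and Y, the mitochondrial genome and a stretch of chromosome 5 were left out, which removed 43 further domains in that stretch, 23 on X and 0 on Y and the mitochondrial genome. The H3K27me3 list held 18731 regions in all, 17500 of them on the sequence used, and 2238 of these were wider than 6 kb. The domains described here were 54.0% of those 2238 (95% Wilson interval 52.0 to 56.1%), while 654 wide regions held no H3K4me3 region and 375 held 3 or more. A single island was found in 832 domains (68.8%) and a pair in 377.

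H3K27me3, trimethylation of lysine 27 on histone H3, is written by Polycomb repressive complex 2 (PRC2) and marks silent genes, many of them regulators of development. PRC2 is drawn to CpG islands, the CpG-rich stretches at the promoters of many genes, and can spread the mark from there over neighbouring nucleosomes, so that a domain may extend well past the promoter. H3K4me3, trimethylation of lysine 4, is written by COMPASS-type (SET1 and MLL) methyltransferases at promoters, most strongly at unmethylated CpG islands. Where both marks occur together the chromatin is called bivalent, a state first described in embryonic stem cells and known also in germ cells.

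The cells were sorted as GFP-positive cells at E11.5, after gonadal regions of several embryos had been pooled; the embryos came from Swiss-Webster females crossed to B6 mice with an Oct4:GFP transgene, a reporter driven by the regulatory sequence of the germ cell and pluripotency gene Oct4. Of the 3 samples, values come from the H3K4me3 and H3K27me3 precipitations, and the input was not used here. Each sample stands for 2 replicates, made from aliquots of 104000 and 97000 cells that were each divided between the precipitations and the input. Each mark has 1 list of regions on build mm9, with no read counts, so the depth behind a region is unknown, no test over replicates was possible, and all values below are descriptions. Wilson intervals cover the counting of regions alone. No expression value, gene annotation or sequence of build mm9 was used here, so the purity of the sorted cells was not checked against marker genes and the domains are named by position, counted from 1. Precipitations of separate chromatin cannot show whether an island and its domain lie on the same chromosome copy or in the same cells.

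Around the width limit the regions changed gradually. At 6.2 kb, the first width above the limit, 41 regions held 1 island and 13 held a pair. At 6.0 kb, just outside, 56 held 1 and 10 held a pair. The limit on islands also divided a continuous range: at 6.2 kb, 41 regions held none and 3 held 3. The widest region that missed the rule for having 3 islands measured 48.0 kb, on chromosome 19 (23193601 to 23241600), and the widest with none measured 46.4 kb, on chromosome 5 (149258601 to 149305000).

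Most of the sequence of these domains carried H3K27me3 without H3K4me3. The 1209 domains covered 14.2 Mb, which is 0.575% of the chromosomes used, and their islands covered 14.9% of that length. Over all 17500 H3K27me3 regions, with or without islands, H3K4me3 covered a similar 14.3% of the length. The median domain measured 9.2 kb (quartiles 7.4 and 13.2 kb, range 6.2 to 105.2 kb), and its islands took up a median of 15.2% of it (quartiles 7.69 and 24.3%). Islands covered under 5% of 192 domains (15.9%) and under 10% of 394 (32.6%). They covered 50% or more of only 35 domains (2.89%). The share ran from 0.431% to 97.1%. Domains with a single island had a median share of 13.7%, and domains with a pair had 18.8%, which follows in part from counting another island. In wide regions with 3 or more islands the median share was 22.6%, and in regions of 1 to 6 kb with 1 or 2 islands it was 38.9%.

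With the number of islands held to 1 or 2 by the rule, which limits the length they can cover, that length had similar medians in domains of up to 50 kb. From the class of 6.2 to 8 kb (424 domains) to the classes of 8 to 10 kb (275 domains) and 10 to 20 kb (417 domains), the median length under islands was 1600 bp in each, and in the 85 domains of 20 to 50 kb it was 1800 bp. The median share accordingly went from 21.2% to 17.4%, 12.5% and 6.42% along these classes. In the 8 domains over 50 kb the median was 900 bp, or 1.23% of the domain. Across the 1209 domains, Spearman's rho between width and length under islands was 0.065 and Pearson's r was 0.066, a description over regions that are not replicates and that the rule selected by island number. Wide regions with 3 or more islands, left out by the rule, had a median of 4200 bp under islands at a median width of 18.0 kb. Pairs of islands were more frequent in wider domains, from 24.8% of the domains of 6.2 to 8 kb to 56.5% of those of 20 to 50 kb. The rule sets the ends of this range, because wide regions more often held 3 or more islands (3.19% of all regions of 6.2 to 8 kb and 51.2% of those of 20 to 50 kb) and then fell outside it.

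**Figure D1:**
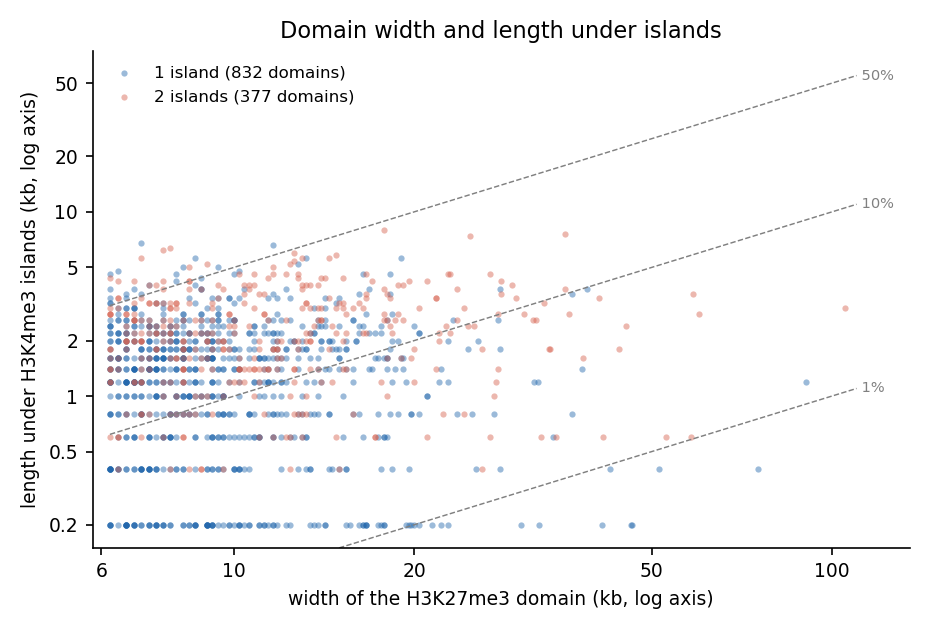
Width of each of the 1209 H3K27me3 domains (kb, horizontal log axis) against the length under its H3K4me3 islands (kb, vertical log axis), with 1 point per domain, blue for 1 island and red for 2. Dashed lines mark islands covering 1%, 10% and 50% of a domain; among these domains, held to 1 or 2 islands by the rule, the medians are similar across widths, with a median of 1600 bp under islands at 6.2 to 8 kb and 1800 bp at 20 to 50 kb.

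The widest domains were long stretches of H3K27me3 with short islands. The widest with a single island, on chromosome 4 (136480801 to 136571400), measured 90.6 kb, and its island of 1.2 kb (136512201 to 136513400) had 31.4 kb of H3K27me3 before it and 58.0 kb after it. Another on chromosome 4 (129703801 to 129779000), of 75.2 kb, held an island of 0.4 kb with flanks of 21.0 and 53.8 kb. In both, the island lay off the centre but far from either end.

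The other 3 of the 5 widest single-island domains differed mainly in where the island lay. On chromosome 15 (100605601 to 100657000, 51.4 kb) an island of 0.4 kb lay 1.0 kb from the end of the domain. On chromosome 5 (127209801 to 127256200, 46.4 kb) an island of 0.2 kb had flanks of 25.4 and 20.8 kb. On chromosome 11 (112821601 to 112867800, 46.2 kb) an island of 0.2 kb began at the same base as the domain. A width of 0.2 kb is 1 step of the 200-bp grid on which all regions of both lists start and end. It is the least that the lists can hold. Several of the widest domains, here and below, held only islands of 0.2 or 0.4 kb. They would leave the set if only islands wider than 400 bp were counted, and the depth behind such islands is unknown.

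Among domains with a pair, the widest was on chromosome 6 (83309201 to 83414400) and measured 105.2 kb. Its islands of 0.8 and 2.2 kb lay 13.4 kb apart toward its far end, leaving 82.0 kb of H3K27me3 before the first. The next, on chromosome 15 (27914601 to 27974600, 60.0 kb), held islands of 0.2 and 2.6 kb separated by 28.2 kb. In a domain on chromosome 14 (118607401 to 118666000, 58.6 kb) the islands measured 0.4 and 3.2 kb, lay 3.0 kb apart and sat near the middle, with 22.8 and 29.2 kb outside them. A similar middle pair of 0.4 and 0.2 kb, 2.2 kb apart, was found on chromosome 11 (69257801 to 69316000, 58.2 kb). In a further domain on chromosome 11 (118447001 to 118499800, 52.8 kb), islands of 0.4 and 0.2 kb lay far apart, 1 near the middle and 1 at 3.0 kb from the end. In all 5, islands of at most 3.2 kb lay within more than 50 kb of H3K27me3.

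**Figure D2:**
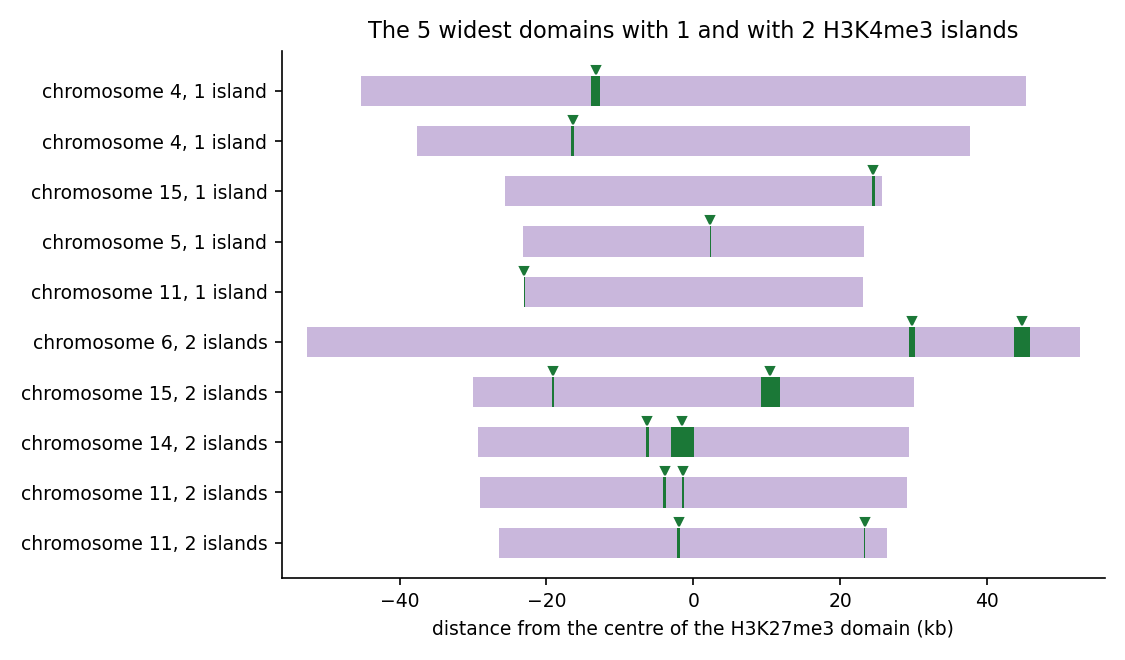
The 5 widest domains with 1 island (upper rows) and the 5 widest with 2 (lower rows), drawn to scale by distance from the domain's centre (kb); lilac bars are H3K27me3 domains, green blocks H3K4me3 islands, and triangles point to each island. Islands of 0.2 to 3.2 kb lie in domains of 46.2 to 105.2 kb, some near the middle and some at an end.

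The islands themselves were somewhat wider than H3K4me3 regions on H3K27me3 in general, which had a median of 1000 bp (quartiles 400 and 1600 bp). The 1586 islands were 1200 bp wide at the median (range 200 to 8800 bp), with quartiles of 600 and 2000 bp. Here and in the other classes of H3K27me3 region, an island was counted once for each region of the class that it touched. Single islands had a median of 1400 bp, those of pairs 1000 bp, and those of wide regions with 3 or more islands 800 bp. Islands of the H3K27me3 regions of 1 to 6 kb had the same median as the domains' islands, 1200 bp. The 37746 H3K4me3 regions that overlapped no H3K27me3 had a median of 600 bp (quartiles 200 and 1400 bp). Single-step islands of 200 bp made up 13.2% of the domains' islands (209) and 27.8% of the H3K4me3 regions free of H3K27me3. Islands over 2 kb numbered 339 (21.4%), against 12.9% of the free regions and 15.4% of the islands of all H3K27me3 regions. That share was 16.2% for islands of regions of 1 to 6 kb and 14.4% for those of wide regions with 3 or more islands.

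Islands seldom reached out of their domain. Of the 1586, 1338 (84.4%) lay inside with H3K27me3 on both sides, 158 (9.96%) lay inside but shared an end with the domain, and 90 (5.67%) crossed 1 end. None reached past both ends, which a domain of over 6 kb allows only to an H3K4me3 region wider than itself. Together 94.3% (95% Wilson interval 93.1 to 95.4%) were enclosed, close to the 94.7% (93.6 to 95.7%) in wide regions with 3 or more islands. The share was 76.3% for the islands of all H3K27me3 regions and 70.8% (69.3 to 72.3%) for those of regions of 1 to 6 kb, where an end is never far away. The 90 crossing islands were wider than most, with a median of 2200 bp, of which a median of 1200 bp lay outside. Some islands joined H3K27me3 regions: 22 islands touched a domain and also at least 1 other H3K27me3 region, so that H3K4me3 ran across the gap between them. They make up 26 of the 1586, because some touched more than 1 of the domains.

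The middle of the domains held more single islands than either end. Placement is given here as the H3K27me3 before the island divided by the H3K27me3 on both sides, which is 0 at the start of the domain, 0.5 with equal flanks and 1 at its end. Any island width leaves this scale the same. Of the 782 single enclosed islands, 344 (44.0%, 95% Wilson interval 40.5 to 47.5%) lay in the middle of the scale cut into 3 equal parts, 234 in the first part and 204 in the last. Island positions spread evenly along the free length would put 33.3% in each. With the scale cut into 10 equal bins, the fullest were those on either side of the centre, with 104 and 116 islands, and the emptiest, from 0.8 to 0.9, held 53. The lists carry no strand, so the ends of a domain have no direction. The shorter flank had a median of 2.2 kb (quartiles 1.2 and 3.4 kb) and the longer one 5.6 kb (4.0 and 8.0 kb). At least 2 kb of H3K27me3 lay on both sides of 448 islands (57.3%), while 185 (23.7%) lay within 1 kb of an end.

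**Figure D3:**
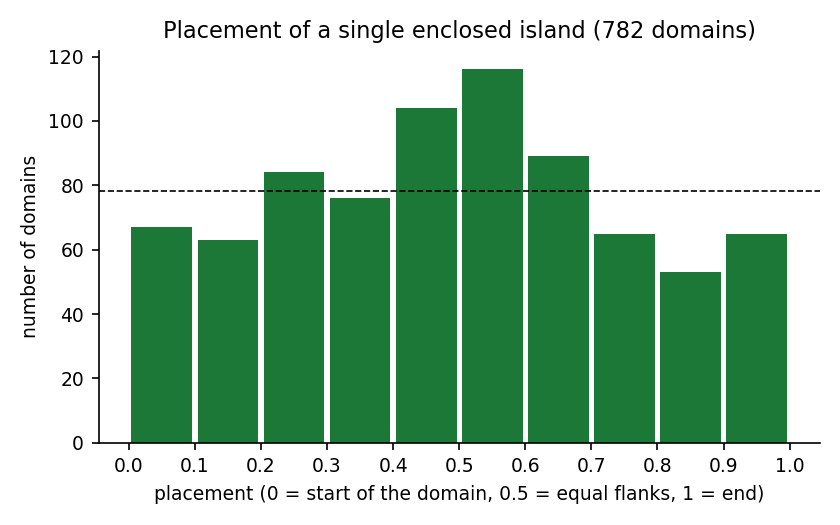
Number of domains (vertical axis) by placement of their single enclosed H3K4me3 island in 10 equal bins of the free length (horizontal axis, no unit); the dashed line is the mean of the bars. The 2 central bars hold 104 and 116 of 782 islands, and the bar from 0.8 to 0.9 holds 53.

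By island width, the middle part held 50.8% (45.2 to 56.4%) of the enclosed single islands of 1200 to 2000 bp and 44.4% (37.3 to 51.7%) of those over 2000 bp. It held 36.3% (30.1 to 43.0%) of islands of 400 to 1000 bp and 38.5% (29.1 to 48.7%) of islands of 200 bp. The interval for 200 bp overlaps that for islands over 2000 bp. No class was tested against another or against the even share of 33.3%. By domain width the middle part held 44.4% at 6.2 to 8 kb, 44.3% at 8 to 10 kb, 41.7% at 10 to 20 kb and 55.6% (39.6 to 70.5%) at 20 to 50 kb, where only 36 domains remained, and 1 of 3 islands over 50 kb. The intervals of these classes of domain width overlap and no difference between them was tested. In H3K27me3 regions of 1 to 6 kb with a single enclosed island, the share was 32.5% (30.5 to 34.5%), and 37.4% (34.99 to 39.9%) in the part of them wider than 2 kb. On the 200-bp grid a narrow region offers few positions, which limits that comparison.

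Clear cases of either arrangement were picked among domains over 20 kb only, and narrower domains were not searched. The most central single island of these lay on chromosome 12 (domain 81113201 to 81135400, 22.2 kb), where an island of 1.4 kb had a placement of 0.490. Close to it were a domain on chromosome 19 (44944201 to 44969200), with flanks of 12.6 and 11.6 kb, and a domain on chromosome 6 (99457201 to 99485000, 27.8 kb), with flanks of 12.8 and 11.2 kb around islands of 0.8 and 3.8 kb, respectively. At the other extreme, besides the domain on chromosome 11 named above, a domain on chromosome 1 (62784201 to 62818400, 34.2 kb) held its island of 0.6 kb at 0.4 kb from its start. On chromosome 4 (153842001 to 153863400, 21.4 kb) an island of 0.2 kb lay 0.8 kb from the end. The central islands named here measured 0.8 to 3.8 kb, and those at an end 0.2 to 0.6 kb, but these are a few picked extremes.

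In domains with a pair, 1 island was usually much the wider. The wider island had a median of 1600 bp (quartiles 1000 and 2400 bp) and the narrower 600 bp (200 and 1000 bp), with a median ratio of 2.40. The narrower was a single step of 200 bp in 29.4% of the 377 domains, and both were in 7. Of the 304 domains with both islands enclosed and unequal, the wider island's midpoint was nearer the centre of the domain in 182 (59.9%) and the narrower's in 116. The midpoint of an enclosed island cannot come nearer an end than its own width allows, which favours the wider island. The share expected from width alone was not computed, so these counts show no preference for the centre. Both islands lay on the same side of the centre in 141 domains (37.4%).

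The spacing within pairs varied from 1 grid step to most of a domain. H3K27me3 without H3K4me3 separated the islands by a median of 2.6 kb (quartiles 1.0 and 4.8 kb), which was 23.8% of the domain. In 88 domains (23.3%) the islands were less than 1 kb apart, 25 of them by 200 bp, and in 83 (22.0%) more than 5 kb apart. The widest spacing was 31.6 kb, in a domain on chromosome 17 (86166401 to 86211600, 45.2 kb) whose islands measured 0.2 and 2.2 kb. Among those spaced by 200 bp was a domain on chromosome 1 (193002001 to 193012800, 10.8 kb), where 3.4 and 0.6 kb of H3K4me3 together covered 37.0% of the domain. Others were a domain on chromosome 1 (34799201 to 34812000, 12.8 kb) with islands of 0.4 and 1.6 kb and a domain on chromosome 2 (29101401 to 29110600, 9.2 kb) with islands of 0.6 and 2.4 kb. Such pairs become a single island when gaps of less than 1 kb in the H3K4me3 list are closed.

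A few domains were instead largely covered by H3K4me3. The largest share, 97.1%, belonged to a domain of 7.0 kb on chromosome 11 (23976001 to 23983000), where an H3K4me3 region of 8.8 kb began 2.0 kb before the domain and stopped 0.2 kb short of its end. A domain of 7.8 kb on chromosome 8 (91564601 to 91572400) was 82.1% covered by islands of 5.2 and 1.2 kb, and a domain of 7.6 kb on chromosome 14 (29317201 to 29324800) was 81.6% covered by islands of 3.6 and 3.0 kb, the latter running 0.4 kb past its end. These domains are narrow, so a wide island fills them. The widest enclosed islands were found elsewhere: 6.6 kb in a domain of 24.8 kb on chromosome 4 (48050801 to 48075600), 6.6 kb in 11.6 kb on chromosome 6 (127098401 to 127110000) and 6.4 kb in 35.8 kb on chromosome 14 (70458601 to 70494400).

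Other H3K27me3 regions lay close to most domains. The nearest was a median of 1.8 kb away (quartiles 0.8 and 6.4 kb). It lay within 1 kb of 428 domains (35.4%) and within 5 kb of 867 (71.7%), where 28.3% and 59.3% of all H3K27me3 regions had another as near. Wide regions with 3 or more islands had a similar median of 1.6 kb. Wide regions without H3K4me3 lay closer, at a median of 1.2 kb with 89.8% within 5 kb, and H3K27me3 regions of 1 to 6 kb with 1 or 2 islands lay at a median of 9.6 kb, with 42.1% within 5 kb. On the farther side the domains' neighbour was a median of 17.1 kb away, and that of wide regions without H3K4me3 4.4 kb. A domain was flanked on both sides within 5 kb in 351 cases (29.0%), where 20.9% of all H3K27me3 regions were. The same held for 29.9% of wide regions with 3 or more islands and 54.3% of those without H3K4me3.

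**Figure D4:**
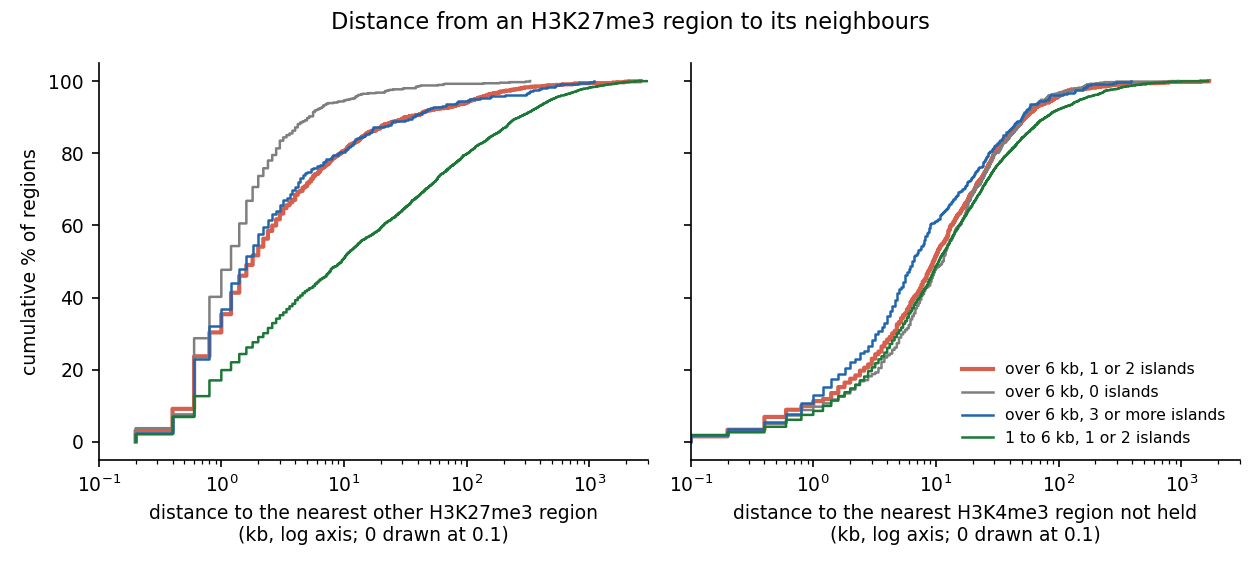
Cumulative percentage of regions (vertical axis) by distance (kb, log axis) to the nearest other H3K27me3 region (left) and to the nearest H3K4me3 region that the region does not hold (right), with 1 line for each of 4 kinds of H3K27me3 region. On the left the domains with 1 or 2 islands (thick red, median 1.8 kb) run beside those with 3 or more (1.6 kb), between the wide regions without islands (1.2 kb) and the regions of 1 to 6 kb (9.6 kb); on the right the lines lie closer together, with medians of 6.4 to 11.4 kb.

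The nearest neighbour was usually narrower than the domain, which the rule favours, because only 2238 of the 17500 H3K27me3 regions exceed 6 kb. It had a median width of 2.2 kb (quartiles 1.0 and 4.8 kb), where the neighbours of all H3K27me3 regions had 1.8 kb. It was wider than the domain itself in 106 cases, and was itself one of the 1209 domains in 124. A neighbour over 6 kb wide was nearest to 19.1% of the domains and 14.0% of all H3K27me3 regions. That share was 21.3% for wide regions with 3 or more islands and 32.9% for those without H3K4me3. In 817 cases (67.6%, 95% Wilson interval 64.9 to 70.2%) it overlapped no H3K4me3. The same share was 64.6% for all H3K27me3 regions, 71.3% (67.7 to 74.6%) for wide regions without H3K4me3 and 53.3% (51.6 to 54.9%) for regions of 1 to 6 kb with 1 or 2 islands.

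Some domains therefore formed parts of longer chains. With gaps of up to 5 kb bridged, 342 domains (28.3%) stood alone and 252 (20.8%) shared a chain with another of the 1209. With gaps of up to 1 kb, 781 (64.6%) stood alone and 89 shared a chain, where 71.7% of all H3K27me3 regions stood alone. The most domains in 1 chain at the 5-kb limit was 5, on chromosome 2 (164918001 to 165093200), where 19 H3K27me3 regions with 14 islands covered 84.1% of 175.2 kb. At the 1-kb limit the most was 3, on chromosome 10 (77804601 to 77862000), where 5 regions with 3 islands covered 95.8% of 57.4 kb. Such chains might each have been listed as 1 wider domain by a method that bridges short gaps.

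The share of a domain under its islands was larger where H3K27me3 neighbours were farther off. The median share was 12.2% (quartiles 5.43 and 19.7%) in the 428 domains with a neighbour within 1 kb and 13.6% (7.32 and 22.6%) in the 439 with the nearest at 1 to 5 kb. It was 19.2% (12.1 and 29.5%) in the 244 at 5 to 50 kb and 28.8% (21.0 and 39.5%) in the 98 without a neighbour inside 50 kb. Isolated domains were narrower, with a median width of 7400 bp against 10200 bp for those with a neighbour within 1 kb. Their islands were also wider, with medians of 1800 and 1000 bp in those groups. Single-step islands of 200 bp made up 4.03% of the islands of isolated domains and 18.2% of those with a neighbour within 1 kb.

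The order also held in subsets of the domains, of which only the first held domains of like width. For the 424 domains of 6.2 to 8 kb the median share was 17.9%, 18.4%, 24.3% and 32.4% along the same distance classes, and their median island width was 1000, 1000, 1400 and 1800 bp. For single-island domains of every width the shares were 10.3%, 12.2%, 18.2% and 25.7%, while median width went from 9400 bp in the nearest class to 7400 bp in the farthest. For domains over 10 kb they were 9.52%, 9.87%, 14.5% and 15.3%, the last from 9 domains, with median widths of 15000 bp in the nearest class and 13800 bp in the farthest. Other H3K27me3 regions had larger shares, also with the largest median in the farthest class. Medians were 19.2%, 21.6%, 25.5% and 34.0% in wide regions with 3 or more islands. In regions of 1 to 6 kb they were 31.8%, 29.4%, 40.0% and 50.0%, so the order did not hold between the nearest classes. Median widths fell from the nearest class to the farthest, from 19200 to 13000 bp and from 3000 to 2400 bp, respectively. A larger share in the farthest class is thus not particular to these domains. These distance classes were chosen after the values were seen, the groups overlap widely, and no test was made.

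**Figure D5:**
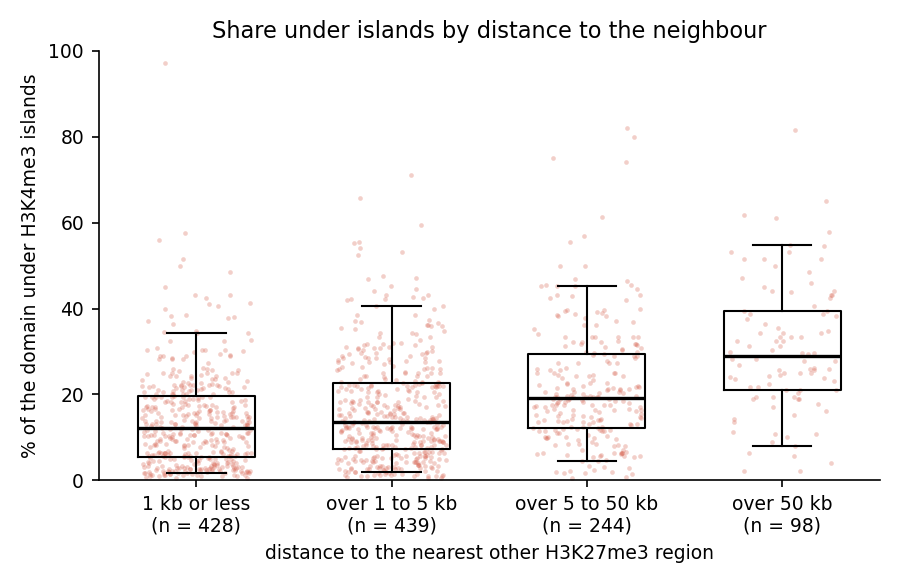
Percentage of each domain under H3K4me3 islands (vertical axis) by distance to the nearest other H3K27me3 region (4 classes, horizontal axis), with 1 point per domain; boxes span the quartiles with the median as a line, and whiskers the 5th to 95th percentiles. The medians are 12.2%, 13.6%, 19.2% and 28.8% from the nearest class to the farthest, and the classes overlap.

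Domains far from any other H3K27me3 were few and small. The farthest lay on chromosome 14 (94284801 to 94292200, 7.4 kb), with an island of 1.4 kb and the nearest H3K27me3 2624.8 kb away. A domain of 6.4 kb near the end of the list for chromosome 17 (93598201 to 93604600) held islands of 1.2 and 2.2 kb, 2109.4 kb from the nearest H3K27me3. A domain of 6.4 kb on chromosome 14 (40283001 to 40289400) held an island of 2.0 kb, 1948.8 kb from its neighbour. The islands covered 18.9%, 53.1% and 31.3% of these narrow domains. The median was 21.2% in all domains of 6.2 to 8 kb and 32.4% in those of that width without H3K27me3 inside 50 kb. The first share lay below both medians, the second above both and the third between them.

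H3K4me3 regions outside the domains were farther off than H3K27me3 ones and about as near as to H3K27me3 regions in general. The nearest H3K4me3 region that a domain did not hold was a median of 9.6 kb away (quartiles 3.4 and 25.4 kb), compared with 11.0 kb for all H3K27me3 regions. It lay within 5 kb of 402 domains (33.3%) and within 50 kb of 1073 (88.8%), against 29.8% and 86.4% of all H3K27me3 regions. Single-island domains had a median of 10.5 kb, those with a pair 7.6 kb and wide regions with 3 or more islands 6.4 kb. Within 5 kb it lay beside 30.5% of the single-island domains and 39.3% of those with a pair. H3K4me3 regions next to a domain had a median width of 600 bp, as did the H3K4me3 regions free of H3K27me3 in general.

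The nearest outside H3K4me3 region was often an island of another H3K27me3 region. This was so for 588 domains (48.6%, 95% Wilson interval 45.8 to 51.5%), close to the 47.1% of all H3K27me3 regions. It was so for 64.5% (60.8 to 68.1%) of wide regions without H3K4me3 and 30.9% (29.4 to 32.5%) of regions of 1 to 6 kb with 1 or 2 islands. The domain farthest from other H3K4me3, on chromosome 14 (112074601 to 112081600, 7.0 kb), held islands of 2.8 and 1.4 kb, the former beginning 0.8 kb before it, with the next H3K4me3 region 1690.6 kb away. Both of the domains on chromosome 14 named above for their distance from H3K27me3 followed, at 1452.6 and 1416.6 kb.

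The domains were spread over all 19 autosomes at different densities. Chromosome 11 held the most, 119 domains or 9.77 per 10 Mb, followed by chromosome 4 with 109 (7.00 per 10 Mb), compared with 4.91 per 10 Mb overall. Both also had the most wide H3K27me3 regions of any kind, 206 and 198. The domains were 57.8% and 55.1% of these, close to 54.0% over all chromosomes used. The lowest densities were 3.05 on chromosome 16, 3.07 on chromosome 3 and 3.20 on chromosome 14. As a share of the wide H3K27me3 regions of a chromosome, the domains ranged from 44.0% on chromosome 13 (95% Wilson interval 34.2 to 54.2%) to 68.1% on chromosome 3 (56.6 to 77.7%). Chromosome 3 thus had few wide regions (72) but held 1 or 2 islands in most of them. Neighbouring domains on a chromosome were a median of 430.7 kb apart (quartiles 73.7 and 1895.2 kb), and 236 of 1190 distances (19.8%) were 50 kb or less. The median share under islands lay between 11.2% (chromosome 16) and 18.7% (chromosome 7), a smaller range than that between distance classes.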

How the data were processed

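H3K4me3 and H3K27me3 were profiled by ChIP-seq. For each mark the authors deposited a single BED list on build mm9, whose positions in bp (chromosome, start, end) and names are its only columns; the list names refer to contiguous ChromHMM regions. Bowtie 0.12.7 was used, per the submitters' processing notes. Not given in the sources used here: ChromHMM settings, how replicates were merged, and what the input served for.

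Overlaps, island positions and distances were computed from the positions in Python 3.11.15 with pandas 2.3.3 and numpy 2.4.6, and Wilson intervals with scipy 1.17.1. Neighbours were taken from the complete lists. A region touching chromosome 5 from 111 to 122 Mb was left out. Chromosome lengths came from GenomeInfoDb 1.38.1. The calculation was tested on simulated data against a direct count. The domains and measures were chosen with earlier results of these data known. Regions are named by rule: the 5 widest domains with 1 and with 2 islands, and the first 3 by island width, share, centrality or closeness to an end (over 20 kb), spacing and distance to either mark. With 1 list per mark, no test or replicate check was possible. The planned overlap with annotated promoters was not run, because the gene table at hand is of another build. Alternatives changed the width limit, the number and least width of islands, the least overlap, the joining of close regions and the sequence left out.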

Additional observations from a re-analysis of the deposited data

How the results depend on the processing

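Of 87 values of 10 results recomputed under 9 alternatives, 72 stayed alike (within 1.5 times, or inside the Wilson interval for percentages of regions or islands) and 15 moved. Only the difference in share by isolation could change sign, because the other results are never negative, and it stayed positive. The difference by isolation was added after seeing the data. With a lower width limit of 4 kb there were 1969 domains, 74.6% with a single island, and 91.2% of islands were enclosed. With a limit of 10 kb there were 510 domains of median width 14000 bp, 60.0% with a single island, 96.1% of islands were enclosed, and the median share in domains without H3K27me3 inside 50 kb exceeded that in domains with it inside 5 kb by 5.50 percentage points, against 15.9 as reported; only 9 domains were then isolated. A higher or lower limit changes widths and counts by construction. Exactly 2 islands left 377 domains. The share with a single island was 72.7% with an overlap of at least 400 bp and 74.3% with islands wider than 400 bp only. That last setting also gave 92.3% enclosed islands and a median of 15200 bp to the nearest H3K4me3 region not held. Joining H3K4me3 regions less than 1 kb apart gave 91.1% enclosed islands, and joining H3K27me3 regions gave a median of 3200 bp to the next H3K27me3 region. The share of single islands in the middle part stayed between 42.5% and 45.5%. No replicate could be left out and the unknown depth limits which regions were listed.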

Other observations

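Gaps of 600 bp were the most frequent between a domain and its nearest H3K27me3 neighbour. They separated 176 domains (14.6%) from it, against 73 with a gap of 400 bp and 80 with a gap of 800 bp. Among all H3K27me3 regions, 8.90% had their nearest neighbour at 600 bp, again more than at 400 bp (5.34%) or 800 bp (5.85%). In the H3K4me3 list 600 bp was likewise the most frequent of the gaps up to 2000 bp, with 1274 gaps against 481 at 400 bp and 1007 at 800 bp. The cause was not tested.

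The 1-Mb window with the most domains was chromosome 6 from 72 to 73 Mb, with 9, and windows on chromosomes 2, 4, 5 and 10 held 7 each. No count of other H3K27me3 regions in these windows is given here, so these numbers do not show a concentration of this kind of domain. Where another H3K27me3 region lay within 1 kb on 1 side only, the single enclosed island was nearer to that side in 128 of 232 domains (55.2%). It was nearer to the other side in 104. No interval was computed and no tendency toward either side was tested.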
